A study of Hymenochirus boettgeri with 8 samples.

Results

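The genes described here were barely detected in eggs and 8-cell embryos of the dwarf clawed frog Hymenochirus boettgeri, were present at a low level at stage 26 and were several times higher in swimming tadpoles. Poly-A RNA had been sequenced from whole unfertilized eggs, 8-cell embryos, stage 26 embryos on the Nieuwkoop and Faber (NF) scale for Xenopus, and swimming tadpoles, all from wild-type animals with no treatment named, in 2 libraries per stage. Levels are TPM, a relative abundance that corrects for length, summed over the transcripts of 1 assembly gene. A gene was included when it was below 1 TPM in all 4 egg and 8-cell libraries, at 1 TPM or more in both stage 26 libraries but below 50 TPM in each, at 20 TPM or more in both tadpole libraries, and when its lower tadpole value was at least 4 times its higher stage 26 value. Of 145306 assembly genes 150 met all of these conditions, so the limit of 300 genes was not reached. Because all 8 libraries were used for this choice, the levels of the 150 genes and their rise are a description and were not tested as a finding.

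In frogs the egg is stocked with maternal RNA, and the embryo's own transcription begins in earnest after the rapid cleavages, in the blastula. By the tail bud stage the main tissues have been laid out, and between then and the swimming tadpole muscle, nerve, blood, gut and sense organs mature and take up their functions. RNA that is absent from the egg and appears by the tail bud stage is generally made by the embryo itself. The libraries were of poly-A RNA, so low values in eggs do not show that RNA without a poly-A tail was absent. Whether RNA of the 150 genes was newly made was not tested. The table gives identifiers without gene names, so no function is given to any of the 150 genes, and markers of tissues could not be looked up. In whole animals, more cells of a type and more RNA per cell cannot be told apart. Separate clutches or animals are not named for the libraries within a stage, and p-values here cover only their spread, in part perhaps technical.

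Together the 150 genes went from a trace of the RNA to a visible share of it. They held 0.000413% and 0.000713% of the summed TPM in the 2 egg libraries and 0.000909% and 0.00132% in the 2 8-cell libraries. At stage 26 they held 0.0796% and 0.0845%, and in tadpoles 2.81% and 2.19%. The mean was 0.0821% ± 0.0034 at stage 26 and rose to 2.50% ± 0.433 in tadpoles, with the SD over 2 libraries. The median gene was at 3.69 and 4.25 TPM in the stage 26 libraries and at 65.5 and 56.6 TPM in the tadpole libraries. Gene by gene, the tadpole mean was 4.85 to 380 times the stage 26 mean, with a median of 13.3 times. It was at least 16 times as high for 61 of the 150 genes and at least 64 times as high for 24.

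**Figure D1:**
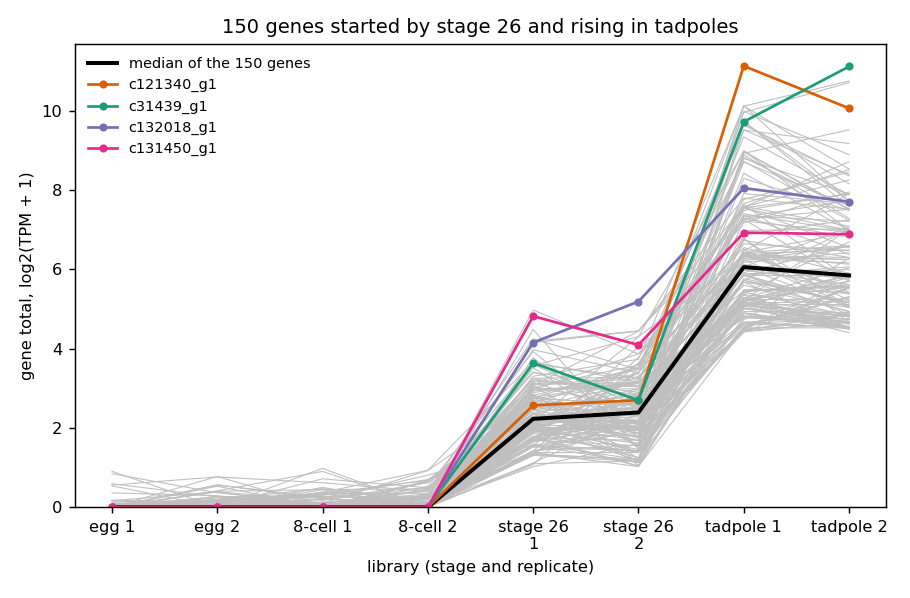
Gene totals on the log2(TPM + 1) scale (y axis) in each of the 8 libraries (x axis) for the 150 genes (grey lines), their median (black) and 4 named genes (coloured). All 150 lines lie below 1 TPM in the egg and 8-cell libraries, step up at stage 26 and step up again in both tadpole libraries.

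The choice held stage 26 levels between 1 and 50 TPM and set no upper limit in tadpoles, and the ranges reflect this. At stage 26 the means ran from 1.19 to 26.1 TPM, and 75 genes lay between 2 and 5 TPM and 48 between 5 and 10 TPM. A mean between 10 and 20 TPM was found for 10 genes and a higher one for 3. In tadpoles the means ran from 22.0 to 1650 TPM. There 64 genes were below 50 TPM, 34 between 50 and 100 TPM, 38 between 100 and 500 TPM, 10 between 500 and 1000 TPM and 4 above 1000 TPM. In tadpoles the 15 most abundant genes held 50.2% of the summed TPM of the group and the top 4 held 23.9%. The same 4 genes held 3.41% of its summed stage 26 TPM. Over the 150 genes the stage 26 and tadpole means had a Pearson correlation of 0.24 on the log2 scale and a Spearman correlation of 0.30. The genes share their libraries and the choice limited both values. These correlations therefore do not show how far the level at stage 26 predicts that in tadpoles.

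The most abundant gene in tadpoles was c121340_g1. It was at 0 in each of the 4 early libraries (eggs and 8-cell embryos), at 4.95 and 5.50 TPM in the stage 26 libraries and at 2233 and 1067 TPM in the tadpole libraries. The 2 stage 26 values were close together, and the tadpole values lay far above them although they were about 2-fold apart. The tadpole mean was 316 times the stage 26 mean. The second most abundant gene, c31439_g1, was also listed at 0 in all 4 early libraries, at 11.4 and 5.49 TPM at stage 26 and at 843 and 2216 TPM in tadpoles. Its higher tadpole value was in replicate 2, where c121340_g1 had its lower one, and its tadpole mean was 181 times the stage 26 mean. Their log2(TPM + 1) changes from stage 26 to tadpole were 7.96 (SE 0.53, adjusted p = 0.0166, limma) and 7.25 (SE 0.63, adjusted p = 0.0173, limma). The SEs draw on the spread within all 4 stages, and both genes were at 0 in the early libraries. They therefore do not measure the spread at stage 26 and in tadpoles alone. The choice used these values and both genes were picked by their tadpole level, so nothing is read from these p-values.

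The other two genes above 1000 TPM had the same profile. The gene of rank 3 by tadpole mean was at 8.88 and 12.3 TPM at stage 26 and at 1107 and 1719 TPM in tadpoles. The gene of rank 4 was at 3.79 and 3.38 TPM at stage 26 and at 993 and 1672 TPM in tadpoles, 372 times its stage 26 mean. Both were at 0 in every early library, and in both the tadpole values were far above the stage 26 values and higher in replicate 2. The largest ratio of means, 380 times, belonged to the gene of rank 9. It was at 1.602 and 1.6 TPM in the stage 26 libraries and at 485 and 732 TPM in tadpoles. It had traces in the early libraries, 0.114 and 0.072 TPM in eggs and 0 and 0.074 TPM in 8-cell embryos.

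Traces in eggs and 8-cell embryos were found for 64 of the 150 genes. In the 4 egg and 8-cell libraries 86 genes were listed at 0 throughout, 20 were above 0 in 1 library, 15 in 2, 21 in 3 and 8 in all 4. The highest early value of any of the 150 genes was 0.975 TPM, and 16 genes reached 0.5 TPM in an early library. Genes above 0 numbered 17 and 37 in the egg libraries and 40 and 51 in the 8-cell libraries. The number of all assembly genes above 0 was lower in the same library, 51089 in egg replicate 1 against 77233, 78406 and 83561 in the other three, and its part in these counts was not tested. The choice held genes with and without early traces to the same limits at stage 26 and in tadpoles. Their later medians are therefore a description and were not tested. The 86 genes listed at 0 had a median of 3.998 TPM at stage 26 and 66.6 TPM in tadpoles, and the 64 with a trace had medians of 4.35 and 61.3 TPM.

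From the 8-cell stage to stage 26 the changes on the log2(TPM + 1) scale ran from 0.99 to 4.67 with a median of 2.22, against a median of 0.57 over all 119072 genes tested. Starting from values near 0, their size is set by the pseudocount: the median of the group was 4.93 with a pseudocount of 0.1 and 0.83 with one of 5. All 150 genes passed the filter of 1 TPM in at least 2 libraries. Of these, 94 were called higher at stage 26 (limma, Benjamini-Hochberg adjusted p under 0.05 over all tested genes), where 10.6% of all tested genes were called higher; the choice of genes used these libraries, so nothing is read from the count. The 94 called genes had a median stage 26 mean of 5.28 TPM and the 56 others one of 2.66 TPM. The largest change was that of c132018_g1, which was listed at 0 in the 4 early libraries and was at 16.8 and 35.4 TPM at stage 26 (log2 change 4.67, SE 0.53, adjusted p = 0.0118, limma). It went on to 264 and 208 TPM in tadpoles. The next was c131450_g1, listed at 0 early and at 27.2 and 16.1 TPM at stage 26 (log2 change 4.46, SE 0.48, adjusted p = 0.0109, limma). Its tadpole values were 121 and 117 TPM. The SEs again draw on all 4 stages, with both genes at 0 in the early libraries. Both genes were picked for the size of this change, so nothing is read from their p-values. In both genes the stage 26 libraries were up to about 2-fold apart. That all 4 late values lay above every early one follows from the choice. Both calls were lost without 8-cell replicate 1 (adjusted p = 0.167 for each, limma) and without 8-cell replicate 2 (adjusted p = 0.139 for each, limma), with the same log2 changes. With pseudocounts of 0.1 and 5 the log2 changes were 7.94 and 2.57 for c132018_g1 and 7.72 and 2.38 for c131450_g1. The count of 94 became 0 without 8-cell replicate 1 (limma, 107 genes of the group and 22187 of all genes at an unadjusted p under 0.05), 0 without 8-cell replicate 2 (108 and 23194 genes) and 38 without stage 26 replicate 1.

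From stage 26 to tadpole the log2 changes ran from 2.14 to 8.14 with a median of 3.41, against a median of 0 over all tested genes. For 128 of the 150 genes this step was larger than the one before it on the log2(TPM + 1) scale, and for 22 it was smaller. This order depends on the pseudocount: at 0.1 the median change of the group was 4.93 for the first step and 3.80 for the second. In the fit over all genes 149 were called higher in tadpoles (limma, adjusted p under 0.05), where 4.35% of all tested genes were called higher; again the choice of genes fixed this and nothing is read from it. The gene without a call had the widest log2 ratio of stage 26 replicate 1 to 2, at the end of a range from -3.21 to 3.61. It was at 21.4 TPM in replicate 1 and 1.75 TPM in replicate 2. Its tadpole values of 148 and 121 TPM were close together (log2 change 4.10, SE 0.92, adjusted p = 0.0512, limma). The 149 calls became 22 without egg replicate 1 and 25 without egg replicate 2. They became 0 without 8-cell replicate 1, 8-cell replicate 2, stage 26 replicate 2, tadpole replicate 1 or tadpole replicate 2, each left out alone (limma, with 10824 to 21738 of all genes at an unadjusted p under 0.05 and all 150 of the group, which the choice fixes). The calls of c121340_g1 and c31439_g1 were lost in the same 5 fits, with adjusted p from 0.0512 to 0.236 (limma) and log2 changes from 6.55 to 8.49.

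**Figure D2:**
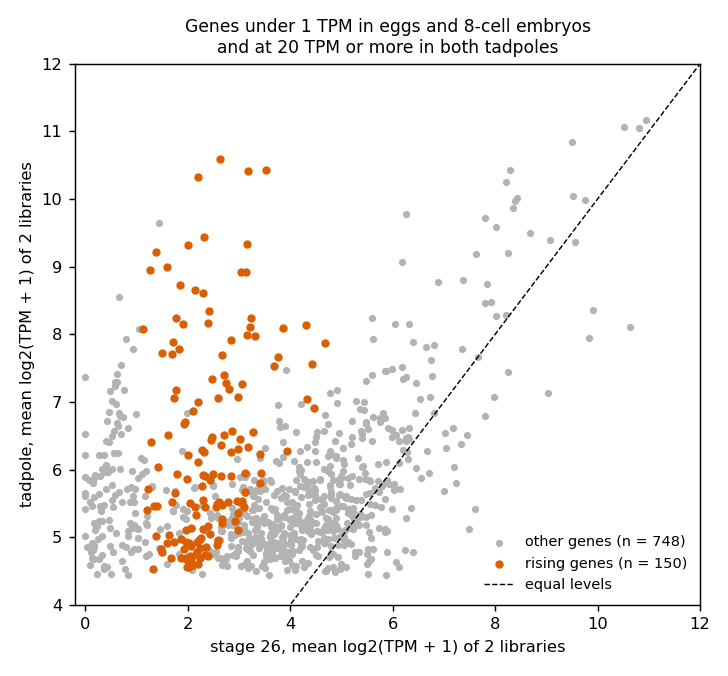
Mean log2(TPM + 1) at stage 26 (x axis) and in tadpoles (y axis), each over 2 libraries, for the 898 genes below 1 TPM in all egg and 8-cell libraries and at 20 TPM or more in both tadpole libraries. The 150 rising genes (orange) lie above the line of equal levels. The genes hardly seen at stage 26 (grey) lie on the median further left. The 583 genes whose lower tadpole value was too close to their higher stage 26 value (grey) lie on the median further right. Some of the 583 lie among the orange points.

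The 150 genes were 16.7% of the 898 genes that were below 1 TPM in all egg and 8-cell libraries and at 20 TPM or more in both tadpole libraries. Of the others, 97 were below 1 TPM in both stage 26 libraries and 66 reached 1 TPM in only 1 of them. A further 583 were at 1 TPM or more in both but missed the 4-fold condition. The last 2 met the 4-fold condition from 50 TPM or more. This condition sets the lower tadpole value against the higher stage 26 value, so genes with replicates far apart can miss it. Among the 583, c128473_g1 was at 2.99 and 14.2 TPM at stage 26 and at 131 and 37.5 TPM in tadpoles. Its log2 change of 3.19 was above the lowest of the 150, 2.14. Median tadpole means were 61.9 TPM in the 150 genes, 54.3 TPM in the 97, 41.1 TPM in the 66 and 42.8 TPM in the 583. These medians were not tested since tadpole values chose the genes. The 583 genes had a median stage 26 mean of 24.4 TPM, against 4.10 TPM in the 150. The 150 held 2.81% and 2.19% of the TPM in the tadpole libraries and the 97 held 0.902% and 0.503%. The 66 held 0.524% and 0.387%, and the 583 held 5.81% and 5.87%. Listed at 0 in all early libraries were 57.3% of the 150, 67.0% of the 97, 78.8% of the 66 and 51.5% of the 583.

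The limits of the choice cut through a continuous range. The gene just inside the 4-fold limit was at 10.9 and 18.7 TPM at stage 26 and at 78.3 and 75.04 TPM in tadpoles, a ratio of 4.004. The gene just outside was at 30.7 and 22.6 TPM and at 158 and 122 TPM, a ratio of 3.987. At the tadpole limit the nearest genes had lower tadpole values of 20.1 TPM inside and 19.8 TPM outside, and 134 genes missed only this condition. At the stage 26 limit they were at 1.03 TPM inside and 0.989 TPM outside, and 151 genes missed only this condition. At the early limit they were at 0.975 TPM inside and 1.07 TPM outside, and 86 genes missed only this one.

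The 2 tadpole libraries were on the median further apart for the abundant genes of the group than for the others, a difference that was not tested. The minimum of 20 TPM in both tadpole libraries leaves little room for wide ratios at low means, so the choice favours this difference. No such split by level is given for other genes. Tadpole replicate 1 was the higher for 92 genes and replicate 2 for 58. It was over 2-fold higher in replicate 1 for 29 genes and over 2-fold higher in replicate 2 for 12. Among the 52 genes with a tadpole mean of 100 TPM or more, 21 were over 2-fold higher in replicate 1 and 3 in replicate 2, and the median ratio between the replicates, in either direction, was 0.88 on the log2 scale. Among the 98 genes below 100 TPM the numbers were 8 and 9, and the median ratio was 0.42. Over all 4266 genes with 20 TPM or more in both tadpole libraries, 16.3% were over 2-fold higher in replicate 1 and 11.3% in replicate 2, against 19.3% and 8.00% in the group.

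**Figure D3:**
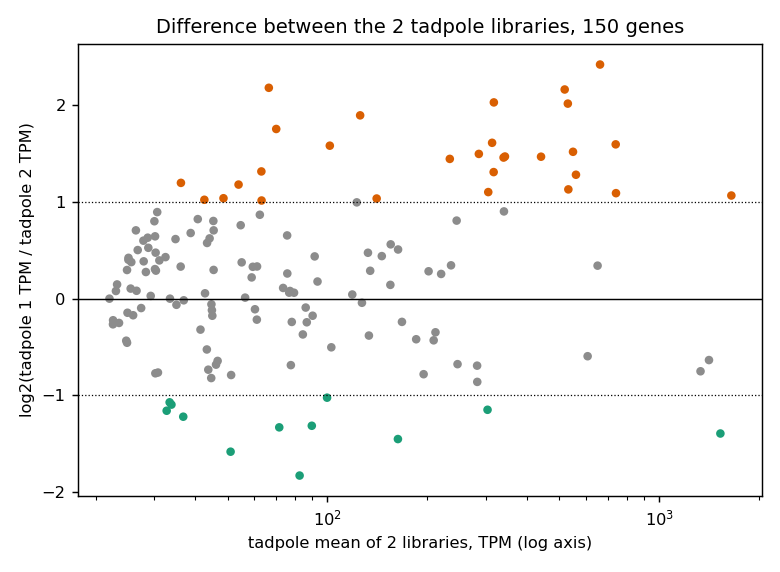
The log2 ratio of tadpole replicate 1 to replicate 2 (y axis) against the mean of both in TPM (x axis, log scale) for the 150 genes. The 29 genes over 2-fold higher in replicate 1 (orange) include 10 of the 15 most abundant ones, and the 12 over 2-fold higher in replicate 2 (green) include c31439_g1, the second most abundant.

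The 29 genes over 2-fold higher in tadpole replicate 1 summed to 14950 TPM in tadpole replicate 1 and to 5439 TPM in replicate 2. At stage 26 they summed to 109 and 163 TPM. The 109 genes within 2-fold between the tadpole libraries summed to 11549 and 12686 TPM, and the remaining 12 to 1424 and 3631 TPM. The signs of the sums of the 29 and of the 12 follow from how these genes were picked out. Of the 15 most abundant genes 11 were higher in replicate 1, and of the top 4 only c121340_g1 was. The widest ratio was that of the gene of rank 7, at 1118 and 209 TPM in tadpoles and at 6.62 and 7.83 TPM at stage 26. In the other direction it was that of the gene of rank 61, at 36.2 and 129 TPM in tadpoles and at 3.58 and 3.55 TPM at stage 26. Both genes had nearly equal stage 26 values and unequal tadpole values.

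At stage 26 the replicates of the group were closer than those of other genes with such tadpole levels, which the 4-fold condition on the higher stage 26 value favours. The median ratio between stage 26 replicates, in either direction, was 0.63 (log2) in the 150 genes and 1.06 over the 4052 genes with 20 TPM in both tadpole libraries and 1 TPM in both stage 26 libraries. The direction was not the same at both stages. Of the 92 genes higher in tadpole replicate 1, 65 were higher in stage 26 replicate 2, and of the 58 higher in tadpole replicate 2, 40 were higher in stage 26 replicate 1. The correlation of the log2 ratios of replicate 1 to 2 at stage 26 and in tadpoles was -0.32 over the 150 genes and -0.69 over the 4052. These values share the same 4 libraries, and replicate numbers of different stages need not belong together. The number of all assembly genes at 1 TPM or more was 92680 and 67206 in stage 26 replicates 1 and 2. In tadpole replicates 1 and 2 it was 82099 and 93289, and its part in these directions was not tested.

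The 150 genes had 333 transcripts in the assembly: 73 genes had 1, 38 had 2 and 39 had 3 or more, up to 17. The share with a single transcript, 48.7%, was 46.0% in the 583 genes that missed the 4-fold condition. It was 70.2% over all assembly genes, which are on the whole much less abundant. How the total of a gene was divided among its transcripts was not used in choosing the genes. A total that rises by unequal amounts over its transcripts also changes their shares, so the choice may still favour share changes. In the 77 genes with more than 1 transcript, 221 of the 260 transcripts were higher in each tadpole library than in either stage 26 library. This held for 19.2% of the 118664 transcripts of all genes with more than 1 transcript, whatever their level. A rise of the total makes a rise of its transcripts likely, so the 221 follow in part from the choice. The stages overlapped for 35 transcripts, and 4 were lower in both tadpole libraries. In 49 of the 77 genes every transcript was higher in both tadpole libraries, against 3.24% of the 20596 genes with more than 1 transcript and at least 1 TPM in the 4 libraries. The choice of genes favours this too.

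In these 77 genes the leading transcript held a somewhat smaller share in tadpoles. The transcript that led in each library held a median of 73.5% and 72.9% of the gene total in the stage 26 libraries and 65.8% and 65.6% in the tadpole libraries. Gene totals were lower at stage 26, where the largest share is less certain, and the part of this was not tested. No such medians are given for the 20596 genes. The leading transcript was the same in all 4 libraries in 41 of 77 genes (53.2%), against 44.4% of the 20596. One transcript led in both stage 26 libraries and another in both tadpole libraries in 6 genes (7.79%), against 4.996% of the 20596. In the gene with 17 transcripts the transcript that led at stage 26 held 40.2% and 35.7% there and was listed at 0 in both tadpole libraries. Another transcript led in tadpoles, with 23.6% and 25.9%, while the total of the gene went from 11.7 and 4.89 TPM to 56.6 and 65.9 TPM.

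The division among transcripts was tested as the share of the gene total in percent, over 54065 transcripts that held at least 5% on average. No transcript was called among them, neither over all genes (0% called) nor among the 201 transcripts of the 77 genes (limma, smallest adjusted p = 0.842). At an unadjusted p under 0.05 there were 18 of the 201 (8.96%), in 12 genes, against 5.82% of all tested transcripts. With the log2 ratio of a transcript to the rest of its gene there were 24 of the 201 (11.9%), against 5.76% of all tested transcripts, and again 0 calls. The percentages were 4.48% against 3.60% with a replicate block and 8.85% against 5.76% with no minimum share. For gene totals of at least 5 TPM they were 18.4% against 5.03%. With single libraries left out, the group did not always have the higher percentage. The stage 26 and tadpole shares did not overlap for 93 of the 201 (46.3%), against 32.3% of all tested transcripts. Of these 93 shares, 52 were higher and 41 lower in tadpoles, and 41 of them, in 23 genes, differed by 20 percentage points or more. The shares of 1 gene are tied to each other, so the 201 transcripts of 77 genes are not separate observations. Their percentages were not tested against those of all transcripts. With 2 libraries a stage and stage 26 totals of a few TPM, the shares had wide errors, and the absence of calls does not show that the shares were equal.

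**Figure D4:**
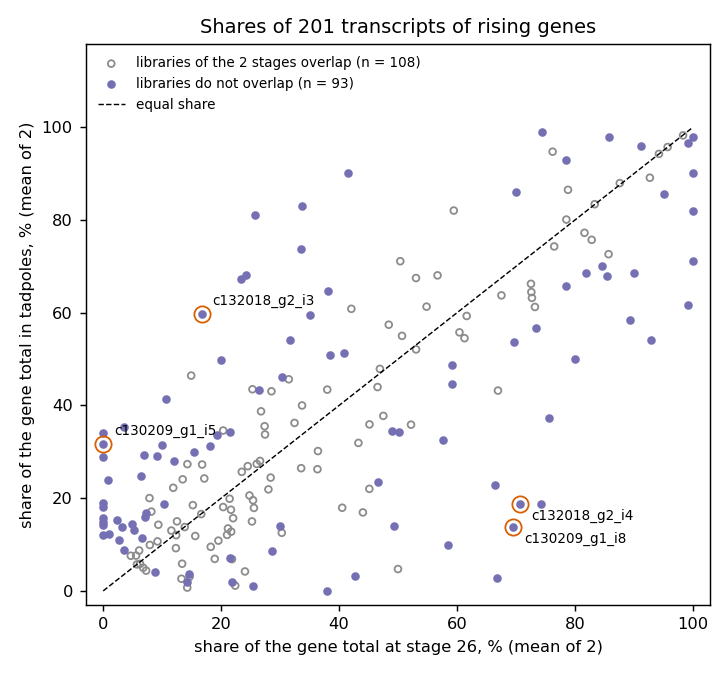
Share of the gene total in percent at stage 26 (x axis) and in tadpoles (y axis), each the mean of 2 libraries, for 201 transcripts of 77 rising genes. Filled points are the 93 transcripts whose stage 26 and tadpole libraries do not overlap. The 4 ringed transcripts belong to 2 genes. In each gene the transcript leading at stage 26 lost share and another gained share, and neither change was called.

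Among transcripts with non-overlapping stages in genes of at least 5 TPM in all 4 libraries, the 2 largest rises and the 2 largest falls in share lay in 2 genes. Larger changes of both signs occurred in genes below that total, from -64.0 to 55.3 points. Gene c130209_g1 totalled 8.44 and 6.44 TPM at stage 26 and 36.4 and 56.9 TPM in tadpoles. Its transcript c130209_g1_i8 was at 6.21 and 4.23 TPM at stage 26 and at 5.87 and 6.55 TPM in tadpoles, so its level overlapped between the stages while its share went from 73.6% and 65.6% to 16.1% and 11.5%. Transcript c130209_g1_i5 was listed at 0 in both stage 26 libraries and was at 9.90 and 20.5 TPM in tadpoles, 27.2% and 36.1% of the total. The changes in share were -55.8 points (SE 15.8, unadjusted p = 0.0196, adjusted p = 0.842, limma) and 31.7 points (SE 8.28, unadjusted p = 0.0148, adjusted p = 0.842, limma), so neither passed.

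Gene c132018_g2 was the second case, with 5.64 and 7.69 TPM at stage 26 and 36.6 and 37.1 TPM in tadpoles. Its transcript c132018_g2_i4 was at 4.69 and 4.49 TPM at stage 26 and higher, at 7.64 and 6.20 TPM, in tadpoles, and its share went from 83.1% and 58.4% to 20.9% and 16.7%. Transcript c132018_g2_i3 was at 0 and 2.57 TPM at stage 26 and at 23.8 and 20.2 TPM in tadpoles, and its share went from 0% and 33.4% to 65.1% and 54.4%. The changes in share were -52.0 points (SE 17.8, unadjusted p = 0.0371, adjusted p = 0.846, limma) and 43.0 points (SE 18.9, unadjusted p = 0.0774, adjusted p = 0.899, limma). The stage 26 libraries of the last transcript differed widely. All 4 transcripts were picked from those whose shares did not overlap between the 2 stages, so nothing is read from that.

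The identifiers also group assembly genes into components, the sets that de novo assemblers with identifiers of this form make from sequences that overlap. Of the 150 genes 75 (50%) were in a component with another assembly gene. This held for 55.7% of the 583 genes that missed the 4-fold condition and 33.6% of all assembly genes. In 8 components 2 of the 150 genes occurred together. In component c132018 both genes belonged to the group: c132018_g1 at 16.8 and 35.4 TPM at stage 26 and 264 and 208 TPM in tadpoles, and c132018_g2 at 5.64 and 7.69 TPM and then 36.6 and 37.1 TPM. Whether the genes of a component are different genes, copies of one or fragments of one was not tested, and the deposited estimates can divide reads among sequences that are alike.

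The other genes of these components were those that did not meet the conditions themselves, so their values were used in setting them apart. Their components were picked through a gene chosen for its rise in these same libraries. Where genes of a component share reads, the choice may favour a rise of these partners too. The values below are therefore a description. There were 209 of them, of which 201 passed the filter. Each tadpole library exceeded both stage 26 libraries for 124 of the 201 (61.7%), which held for 20.4% of all tested genes; 14 were lower in both and 63 overlapped. The median log2 change was 1.30. Among the 45885 other tested genes that shared a component the percentage was 20.6% and the median change was 0.0041. The 583 genes that missed the 4-fold condition had 856 tested partners, leaving out those of the 150. Among these 856 the percentage was 32.1% and the median change was 0.41. These percentages were not tested against each other. In the fit over all genes 46 of the 201 (22.9%) were called higher in tadpoles (limma, adjusted p under 0.05), against 4.35% of all tested genes called higher and 3.505% of the 856 partners. The 201 lay in 61 components and the 46 in 33 of these. Genes of 1 component may share reads, so they are not separate observations. The 46 calls became 1 without egg replicate 1, 2 without egg replicate 2 and 0 without 8-cell replicate 1, 8-cell replicate 2, stage 26 replicate 2, tadpole replicate 1 or tadpole replicate 2 (limma, 62 to 104 higher in tadpoles at an unadjusted p under 0.05 in these 5 fits). The median change then lay between 1.11 and 1.36.

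**Figure D5:**
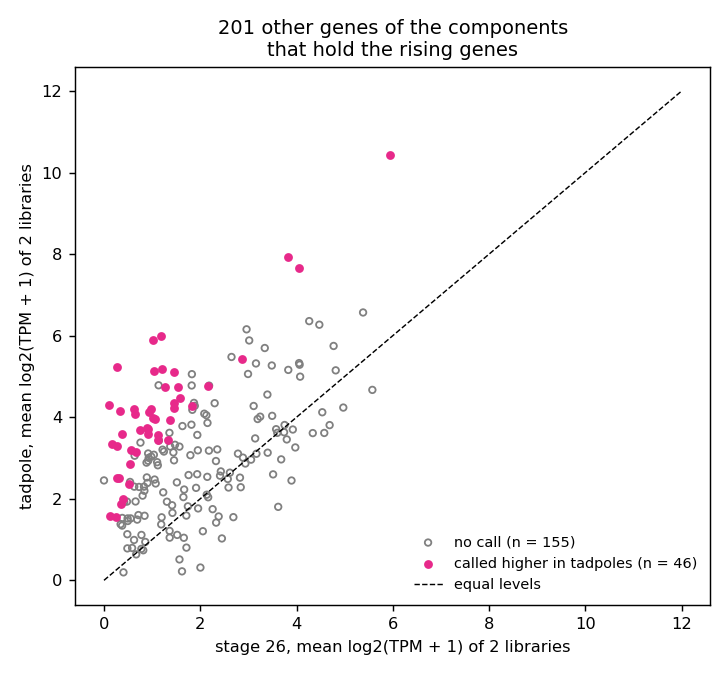
Mean log2(TPM + 1) at stage 26 (x axis) and in tadpoles (y axis), each over 2 libraries, for the 201 tested genes that share a component with one of the 150 rising genes but are not among them. The 46 genes called higher in tadpoles (filled, limma adjusted p under 0.05) lie above the line of equal levels, as do most of the 155 without a call.

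Most of these partner genes were less abundant than the 150, with a median of 2.17 TPM at stage 26 and 8.14 TPM in tadpoles, and 37 of the 201 had a tadpole mean of 20 TPM or more. Of the 201, 133 (66.2%) were below 1 TPM in all egg and 8-cell libraries, against 43.2% of all tested genes and 63.9% of the 856 partners. The most abundant partner was at 47.9 and 76.8 TPM at stage 26 and at 1059 and 1795 TPM in tadpoles, with up to 1.95 TPM in the early libraries, and so lay outside the limits of the choice at both ends. The gene of the group in its component was at 5.995 and 3.23 TPM at stage 26 and at 83.2 and 88.7 TPM in tadpoles.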

How the data were processed

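Poly-A RNA of 8 samples was measured, 2 per stage, and per the labels' protocols libraries were strand-specific. Per the submitters' processing notes, the authors used kallisto 0.42.4, and the deposited TPM values are its output; how the transcripts were assembled or filtered is not given in the sources used here. TPM keeps no read depth, so depth is unknown and no counting intervals were computed; columns summed to 991754 to 998506. Columns were matched to samples by title and stages and replicates by source name.

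TPM was summed per assembly gene (identifier without its last number). Gene totals of at least 1 TPM in at least 2 libraries were tested as log2(TPM + 1), which understates changes of low genes, with limma 3.58.1 in R 4.3.3 (a mean per stage over all 8 libraries, moderated variances with a trend, two-sided, Benjamini-Hochberg over 119072 genes, called under 0.05; 4 residual and 3.12 prior degrees of freedom). Genes listed at 0 in many libraries have a small estimated spread. Transcript shares in percent were tested in the 4 stage 26 and tadpole libraries for genes with 2 or more transcripts and a total of at least 1 TPM in each, for transcripts with a mean share of at least 5%. Both fits were also run on simulated data with normal noise. Such data do not resemble genes listed at 0 in many libraries, and no result here rests on them. Named genes were the 2 with the highest tadpole mean and the 2 with the largest change from the 8-cell stage to stage 26; named transcripts had the 2 largest rises and 2 largest falls in share among those with non-overlapping stages and a gene total of at least 5 TPM. Genes given by rank, and the comparison of partner genes, were chosen after their values were seen. The members and lists were chosen with earlier results of these data known. Alternatives covered pseudocount, filter, scaling, variance prior, stages fitted, a replicate block and single libraries left out. Python 3.11.15, pandas 2.3.3, numpy 2.4.6 and matplotlib 3.10.9 were used.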

Additional observations from a re-analysis of the deposited data

How the results depend on the processing

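The choice of genes fixes a positive change in both steps, so its sign under the alternatives shows no stability; the number of calls depended on the libraries and the model. From the 8-cell stage to stage 26, the 16571 calls over all genes and the 94 in the group became 28529 and 143 with a pseudocount of 0.1, 6484 and 11 with a pseudocount of 5, 10556 and 31 after quantile normalization, 0 and 0 when only the 2 stages were fitted (40000 genes and 141 of the group at an unadjusted p under 0.05), and 6747 and 29 without genes at 0 in all egg and 8-cell libraries, an alternative chosen after seeing the data that tested 64 of the group. Without 1 library each they ranged from 0 to 23013 and from 0 to 101. Rises were 76.5% of the calls, 87.0% with median-of-ratios scaling and 55.2% with quantile normalization, which moved the median change of all genes from 0.57 to 0.041 and that of the group from 2.22 to 1.57.

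From stage 26 to tadpole, the 6351 calls over all genes became 1797 with a minimum of 5 TPM, 3707 with quantile normalization and 2949 with a constant prior variance. The 149 calls in the group became 73 with a pseudocount of 0.1. The 46 calls among partner genes, for which every alternative was added after seeing the data, became 19 with that pseudocount and 73 with median-of-ratios scaling. All genes, group and partners had 0, 0 and 0 calls in a fit to the 2 stages (14128 genes and 150 of the group at an unadjusted p under 0.05), and 83, 14 and 2 without genes at 0 in all early libraries. Without 1 library each they ranged from 0 to 6285, from 0 to 105 and from 0 to 60. The calls of the 4 named genes were also lost when only the 2 compared stages were fitted (limma adjusted p = 0.0879 for c132018_g1 and c131450_g1, 0.255 for c121340_g1 and c31439_g1). The cause of these shifts was not tested. The share test gave 0 calls under all of its alternatives.

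The labels give replicate numbers but no pairing, and with 2 numbers none could be established: deviations of same-numbered libraries correlated between -0.273 (stage 26 and tadpole) and 0.165 (egg and 8-cell). With the replicate block there were 5633 calls (30 in the group) to stage 26 and 0 calls to tadpole (0 in the group, 0 among partners, limma adjusted p = 0.0556 for c121340_g1 and c31439_g1; 17358 genes and 150 of the group at an unadjusted p under 0.05).

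The choice of genes itself gave 165 genes after median-of-ratios scaling, of which 127 were among the 150. On stage means it gave 300, its limit, of which 121 were among the 150. All 150 also meet the conditions on stage means, and those missing were cut by the limit, which keeps the highest tadpole means. Leaving out 1 library, where the conditions rest on fewer values, gave 152 to 300 genes: 283 without stage 26 replicate 1, 249 without stage 26 replicate 2, 300 without tadpole replicate 1 and 274 without tadpole replicate 2. Without tadpole replicate 1 the limit again cut some of the 150, and 147 of them were kept. Depth is unknown, so values near 1 TPM at stage 26 carry an unstated counting error.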
